A study of Homo sapiens with 12 samples.

Results

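The mitochondrial share of a cell, here the percent of its unique molecular identifiers (UMIs, one per captured RNA molecule) on genes of chromosome M, was used to split haploid human eHAP1 cells profiled by LAST-seq. Within each genotype and batch, the 25% of cells with the highest share (high-share group) were set against the 25% with the lowest share (low-share group). This gave 148 of 301 cells, with 18, 18, 19 and 19 cells on each side in WT batch 1, WT batch 2, SCC4 KO batch 1 and SCC4 KO batch 2. The share itself therefore chose the cells, and it is given as a description without a test. Nuclear genes were compared as a share of nuclear UMIs, and their levels are given as CPM, counts scaled to the same total of nuclear UMIs in each summed group. The choice used nuclear genes only through the total UMIs of a cell, by which the share is divided. Nuclear copies of mitochondrial genes, described below, are an exception, since reads of the closest copies cannot be kept fully apart from those of chromosome M.

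LAST-seq sorts single cells into the wells of a plate, tags their polyadenylated RNA with a well barcode and amplifies it by in vitro transcription. The eHAP line is a human cell line with a single copy of each chromosome, and it was grown with 10-Deacetylbaccatin-III so that it stayed haploid. WT cells carried no SCC4 edit. In SCC4 KO cells the SCC4 gene, listed as MAU2, was cut by Cas9, after which single-cell clones were grown. The study describes its sorted cells as the offspring of 1 cell, so a genotype is limited to a clonal population. SCC4 is a subunit of the loader that places cohesin on chromosomes. Cells of both genotypes were stained with Hoechst33342 and Zombie Green, and were sorted as live haploid cells in G1. The labels tie both batches of a genotype to 1 pooled sample, so the 4 sets are batches of 2 cell populations and not separate animals or donors.

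The mitochondrial genome is a small circle that encodes subunits of the respiratory chain and the ATP synthase together with the ribosomal and transfer RNAs that translate them. All other mitochondrial proteins are encoded in the nucleus and imported. In single-cell RNA sequencing a high mitochondrial share is widely used as a sign of a damaged cell, and it also follows the mitochondrial content of the cell.

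Some wells stood apart before any comparison was made. The cells held between 18022 and 926415 UMIs. In WT batch 2, 2 cells exceeded 3 times the median UMIs of their set. Both lay in the low-share group and held 37.3% of its nuclear UMIs. In WT batch 1, 1 such cell lay in the low-share group and held 16.7%. The KO sets had none. The well barcodes were also reused, with 78 barcodes in all and 67 of them present in all 4 sets. Cells with the same barcode in different sets are different cells, but their depth went together, with a Spearman correlation of 0.26 to 0.65 over the 6 pairs of sets and 70 to 75 shared barcodes a pair. Their mitochondrial shares went together less closely, at 0.07 to 0.39. The same barcode was in the high-share group of at least 2 sets for 22 barcodes and of all 4 sets for 2 barcodes.

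**Figure D1:**
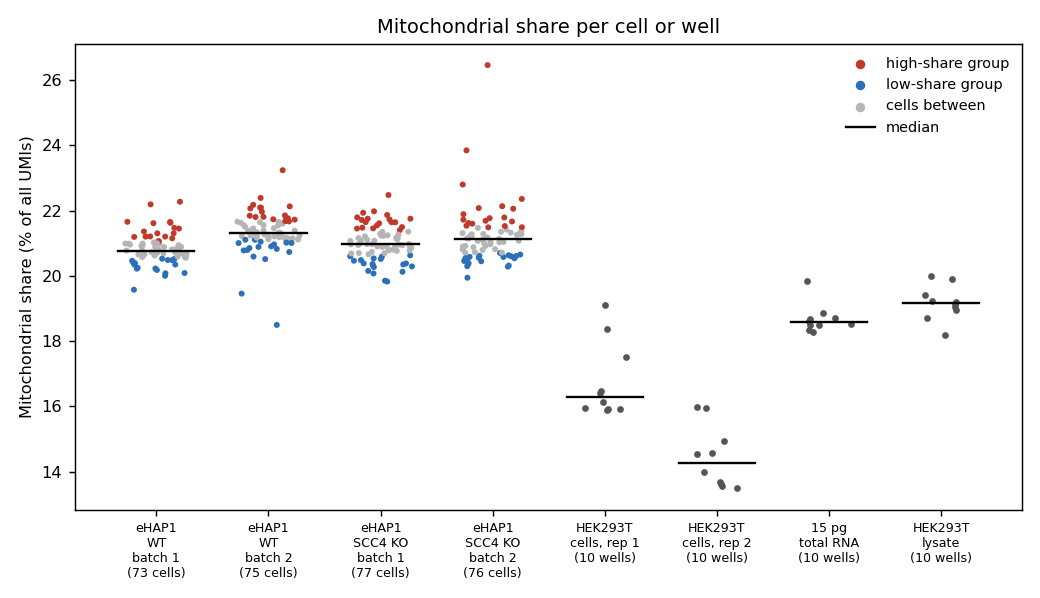
Mitochondrial share (percent of all UMIs, vertical axis) of each eHAP1 cell by genotype and batch and of each HEK293T well, with a line at the median. The eHAP1 cells lay close together around medians of 20.8% to 21.3%, with 1 SCC4 KO batch 2 cell at 26.5% and 1 WT batch 2 cell at 18.5%.

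The split was narrow. The share ran from 19.6% to 22.3% in WT batch 1 (median 20.8%, SD 0.476 over 73 cells) and from 18.5% to 23.2% in WT batch 2 (median 21.3%, SD 0.597, 75 cells). In SCC4 KO it ran from 19.8% to 22.5% in batch 1 (median 21.0%, SD 0.533, 77 cells) and from 19.9% to 26.5% in batch 2 (median 21.1%, SD 0.863, 76 cells). The ranges of the 4 sets overlapped. The medians of the high-share and low-share groups were 21.3% and 20.3% in WT batch 1, 21.8% and 20.9% in WT batch 2, 21.6% and 20.4% in KO batch 1, and 21.8% and 20.5% in KO batch 2. At the lower edge in WT batch 1, the last cell inside the low-share group had 20.53% and the first outside 20.55%. At its upper edge the last cell outside the high-share group had 21.02% and the first inside 21.05%.

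The spread of the share was larger than counting error. Its SD was 3.48, 5.27, 3.69 and 8.08 times the SD that counting alone would give in the 4 sets. Wells of 15-pg total RNA, which hold no difference between cells, were also wider than counting error, at 3.77 times for 10 wells (SD 0.444). The 10 wells of HEK293T lysate were at 3.79 times (SD 0.532), and whether they came from 1 lysate is not given in the labels. HEK293T, a human embryonic kidney line, gave single-cell SDs of 1.16 and 0.948 in 2 replicates of 10 wells. The SDs of the eHAP1 cells in WT batch 1 and KO batch 1 lay within or near the range of the RNA and lysate wells, whose input and plates differed from theirs.

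Most genes of chromosome M were higher in the high-share group, as the choice of cells fixes for their sum. Of the 13 protein-coding genes, 12 were higher in all 4 sets, as were both ribosomal RNAs and 9 of 21 transfer RNAs, and 1 transfer RNA was lower in all 4 sets. MT-CO3, a subunit of cytochrome c oxidase and the most abundant of them, took 4.99%, 5.07%, 4.06% and 4.05% of all UMIs in the high-share groups of WT batch 1, WT batch 2, KO batch 1 and KO batch 2, and 4.57%, 4.45%, 3.87% and 3.88% in the low-share groups. MT-ND4, a subunit of respiratory complex I, was 1.04-fold, 1.12-fold, 1.11-fold and 1.10-fold higher. MT-CO1, the catalytic subunit of cytochrome c oxidase, was 1.04-fold, 1.01-fold, 1.08-fold and 1.03-fold higher. These folds are of summed shares. In KO batch 2 the median of MT-CO1 over cells was 0.561% in the high-share group and 0.565% in the low-share group. In the other sets its median was higher in the high-share group. MT-CO2, of the same complex, was the protein-coding gene that was not higher in every set, with folds of 1.01, 0.9998, 1.01 and 1.07. Its median over cells was lower in the high-share group in WT batch 1, WT batch 2 and KO batch 1, and higher in KO batch 2. Genes of 1 genome and 1 complex thus contributed unequally to the split.

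MT-ND1, another complex I subunit, had unequal values in the genotypes. Its summed share was 1.05-fold and 1.12-fold higher in the WT high-share groups and 1.24-fold and 1.40-fold higher in the KO high-share groups. The medians over cells differed less, with 1.77% against 1.69% in WT batch 1, 1.84% against 1.68% in WT batch 2, 1.79% against 1.67% in KO batch 1 and 1.74% against 1.63% in KO batch 2. Few KO cells held much more. MT-ND1 took more than in any WT cell (2.37%) in 3 KO batch 1 cells, of which 2 were in the high-share group, and in 4 KO batch 2 cells, all of which were in the high-share group. These cells were picked out after their values were seen. The cell with the highest mitochondrial share of all, 26.5%, had 7.42% of its UMIs on MT-ND1 and a share of 20.6% without that gene.

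These cells shared well barcodes between batches. The 7 KO cells included 3 barcodes that were above the WT maximum in both KO batches. The first had 3.10% and 3.07% MT-ND1 in KO batch 1 and KO batch 2, the second 3.44% and 7.42%, and the third 2.39% and 2.43%. In WT batch 1 and WT batch 2 the same barcodes had 2.02% and 1.92%, 2.25% and 2.37%, and 1.83% and 1.95%, each above the set medians of 1.71% and 1.74%. MT-ND1 was thus above the median at the same barcodes in both genotypes and batches. Over all shared barcodes its Spearman correlation between sets was 0.17 to 0.58, beside 0.28 to 0.43 for MT-CO3, 0.12 to 0.48 for MT-ND4 and −0.10 to 0.13 for MT-ND4L. The wells paired here share a barcode primer, and the part of the barcode in the high shares was not tested beyond ranking the cells within barcodes. Ranking the cells without MT-ND1 kept 64 of the 74 high-share cells and 66 of the 74 low-share cells. Ranking them by their deviation from the mean of their barcode kept 43 and 48.

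Nuclear copies of mitochondrial genes, taken as a sum, were higher in the high-share cells. They are pieces of the mitochondrial genome inserted into chromosomes long ago, and some are so close in sequence to the original that short reads can be placed on either. Of 71 tested, 3 were called higher, beside 0.109% of all genes tested, and all 3 lie on the plus strand of chromosome 1. The last 60 bases of the 2 most abundant copies (hg38) show how little separates them from chromosome M, with capitals at the mismatch. The last match ends 1 base past MT-ND1, in the transfer RNA gene MT-TI.
MTATP6P1 copy, chr1:634317-634376, plus strand: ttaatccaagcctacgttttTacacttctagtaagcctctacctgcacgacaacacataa
MT-ATP6 end, chrM:9148-9207, plus strand: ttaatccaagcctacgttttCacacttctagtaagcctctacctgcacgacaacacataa
MTND1P23 copy, chr1:629374-629433, plus strand: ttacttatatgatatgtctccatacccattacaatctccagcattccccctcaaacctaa
Chromosome M match, chrM:4204-4263, plus strand: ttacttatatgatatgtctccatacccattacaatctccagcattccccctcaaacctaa

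MTATP6P1 (ENSG00000248527, chr1:633696-634376, unprocessed pseudogene) had 10 mismatches to chromosome M over 681 bases, and 46.7% of its 50-base windows, the length of read 1, occur unchanged on chromosome M. For MTND1P23 (ENSG00000225972, chr1:629062-629433), with 17 mismatches over 372 bases, the share was 62.2%. For MTND2P28 (ENSG00000225630, chr1:629640-630683) it was 43.5%. Some other copies lay further from chromosome M, with a share of 3.46% for MTND4P12 and 0% for MTATP6P2. The UMIs of the called copies are therefore uncertain, and they are kept apart from the other nuclear genes. Reads of the chromosome M genes that chose the cells can be counted on these copies. Their test is thus not independent of the choice of cells, and their adjusted p-values are no separate support.

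MTATP6P1 had 50979, 52079, 41259 and 42986 CPM in the 4 high-share groups (WT batch 1, WT batch 2, KO batch 1, KO batch 2, the order used throughout) and 46982, 45642, 39914 and 40007 in the low-share groups. It was higher in the high-share group of every set, and the genotypes differed more than the groups. The fitted log2 ratio was 0.11 (SE 0.029 from the ratios of the 4 sets, n = 4, adjusted p = 3.63e-32 by edgeR's quasi-likelihood test with Benjamini-Hochberg adjustment). The test took its spread from genes of like level and not from the gene itself, so an adjusted p can be too small where the sets of a gene lie far apart, and each SE given here is taken over the 4 sets. MTND1P23 had 24954, 26009, 20638 and 21409 against 23421, 23453, 17876 and 18675, a log2 ratio of 0.16 (SE 0.026, edgeR adjusted p = 6.44e-39). The KO cells with MT-ND1 above the WT maximum, most of them in the high-share groups, also held more of this copy. It took 2.15% to 4.03% of their nuclear UMIs, beside a median of 1.90% in each KO set. Their part in the KO ratios was not tested. For MTND2P28 the ratio was 0.11 (SE 0.026, edgeR adjusted p = 0.0159). Both of the first pair were called when cells were ranked within well barcodes (0.10 for each), and MTND2P28 was not (0.06, edgeR adjusted p = 0.9998).

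All listed nuclear copies together held 10.2%, 10.5%, 8.999% and 9.21% of nuclear UMIs in the high-share groups and 9.62%, 9.56%, 8.41% and 8.59% in the low-share groups, a ratio of 1.06, 1.09, 1.07 and 1.07. Between the middle cells of each set, split at their median, the ratio was 0.999 to 1.01. Per cell, their share of nuclear UMIs had a Spearman correlation of 0.64, 0.70, 0.59 and 0.67 with the mitochondrial share over the cells of each set, which share a library and read length. Of the 71, 8 were higher and 1 lower in all 4 sets, beside 7.33% and 7.06% of all nuclear genes. MTCO2P12 (ENSG00000229344), a copy of MT-CO2, did not pass the test, with a log2 ratio of 0.01 (SE 0.018). When 10 wells of each other library were split into 5 and 5 by mitochondrial share, the wells with the higher share had 1.09-fold and 1.12-fold more of the copies in HEK293T cells, and 1.04-fold more in both 15-pg RNA and lysate.

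**Figure D2:**
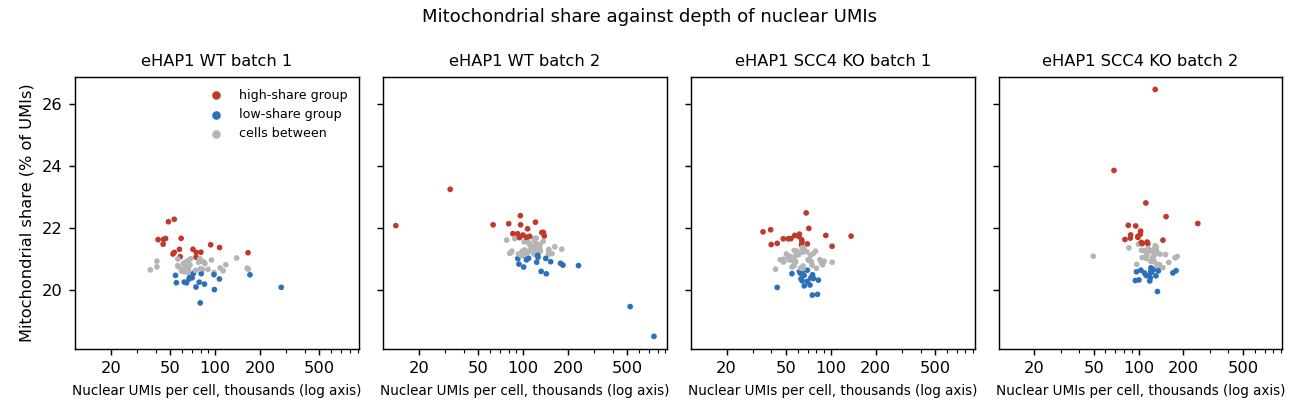
Mitochondrial share (percent of all UMIs) against nuclear UMIs per cell (log axis, scaled as labelled), 1 panel per genotype and batch, with high-share cells in red and low-share cells in blue. High-share cells had fewer nuclear UMIs at the median in each panel, by a ratio of 0.760, 0.760, 0.885 and 0.852, and the deepest WT cells lay in the low-share group.

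High-share cells were shallower. Their median nuclear UMIs were 57954, 98192, 61617 and 103204, against 76295, 129194, 69630 and 121097 in the low-share groups. Their median mitochondrial UMIs were lower too, by a ratio of 0.819, 0.817, 0.968 and 0.914, so cells of the high-share group did not hold more mitochondrial molecules than those of the low-share group at the median. Over all cells of a set, the Spearman correlation of the share with nuclear UMIs was −0.29, −0.38, −0.24 and −0.25, in which nuclear UMIs enter both measures. Fewer molecules in a cell and a lower capture in its well cannot be told apart.

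High-share cells had 8580, 9634, 8686 and 10433 nuclear genes at the median, and low-share cells had 9525, 10491, 8869 and 10924. When each cell was thinned to 20000 nuclear UMIs, leaving out 1 high-share cell of WT batch 2, the medians were 5570, 5396, 5504 and 5568 against 5634, 5452, 5501 and 5640. After thinning, the high-share median was lower by 64, 56 and 72 genes in WT batch 1, WT batch 2 and KO batch 2 and higher by 3 in KO batch 1.

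Few nuclear genes separated the groups. Of 15535 genes averaging 0.1 UMI per cell or more, 17 were higher (0.109%) and 27 lower (0.174%) in the high-share group by edgeR at an adjusted p of 0.05, in a fit with the set as a block. At an unadjusted p of 0.05 it was 871 genes. Only 19 of the 44 moved in the same direction in all 4 sets, 9 up and 10 down. For 39 of the 44 the SE over the sets was above that of the fit, and for 19 it was more than 3 times as large. With edgeR's robust option, in which genes with unequal sets keep more of their own spread, 13 genes were higher and 18 lower, and 30 of the 44 were among them. In 12 of the 44, more than 20% of all UMIs came from 1 cell. Without the cell that held the most UMIs of a gene in each group, 7 genes were higher and 14 lower. Without the block no gene was called by edgeR (84 at an unadjusted p of 0.05), and DESeq2 called 3. With cells ranked within well barcodes, 9 were higher and 14 lower, and 18 of the 44 were among them. Without the cells over 3 times the median depth, 37 of the 44 were called. Without WT batch 2, 27 genes were called in all. Of the 17 named genes with 1 direction in all 4 sets, 13 were called without WT batch 1, 7 without WT batch 2, 8 without KO batch 1 and 9 without KO batch 2. MTATP6P1, MTND1P23, ELAVL3 and PPP6R3 were called in each of these fits.

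**Figure D3:**
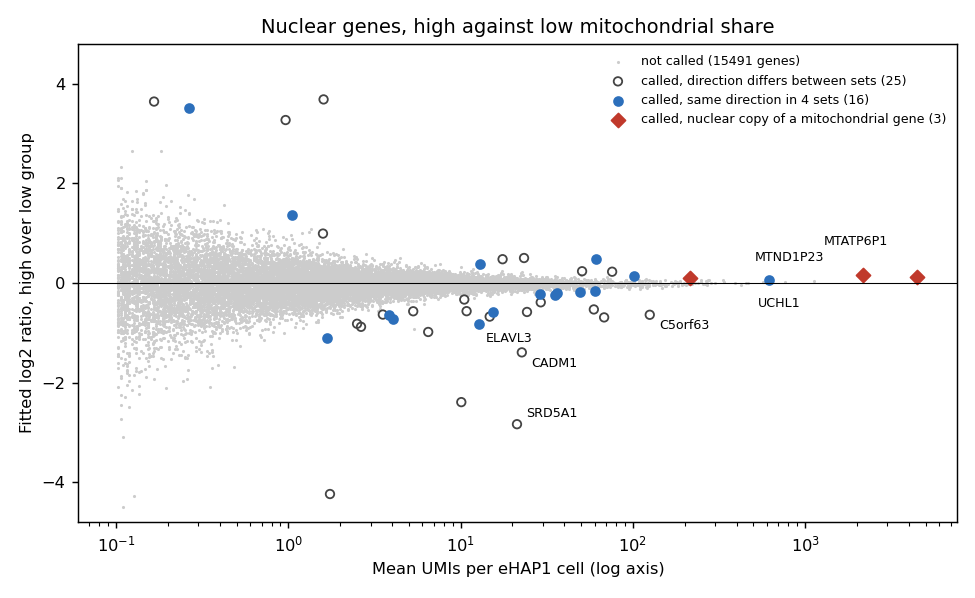
Fitted log2 ratio of high-share over low-share group against mean UMIs per eHAP1 cell (log axis) for 15535 nuclear genes. Open circles are called genes whose direction differed between sets, filled points are called genes with 1 direction in all 4 sets, and red diamonds are the 3 nuclear copies, which stand at the abundant end with small positive ratios.

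ELAVL3, PPP6R3 and GRM3 fell in the high-share group. ELAVL3 (ENSG00000196361), a neuronal RNA-binding protein, had 127, 96.7, 74.3 and 55.2 CPM in the high-share groups and 144, 188, 145 and 123.4 in the low-share groups. It was lower in all 4 high-share groups, and WT batch 1 showed the smallest difference. The log2 ratio was −0.81 (SE 0.22, edgeR adjusted p = 5.67e-20), −0.67 without the leading cells and −0.72 within well barcodes. PPP6R3 (ENSG00000110075), a regulatory subunit of protein phosphatase 6, had 133, 117, 126 and 101 against 146, 172, 210 and 180, a log2 ratio of −0.58 (SE 0.15, edgeR adjusted p = 2.76e-12). It stayed called without the leading cells (−0.49) and within well barcodes (−0.41). GRM3 (ENSG00000198822), a metabotropic glutamate receptor, was rare, with 15, 13, 14 and 24 UMIs in the summed high-share groups and 28, 51, 46 and 60 in the low-share groups. Its log2 ratio was −1.10 (SE 0.241, edgeR adjusted p = 0.00308), and within well barcodes it did not pass (−0.81, edgeR adjusted p = 0.221).

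The other called genes that were lower in all 4 sets changed less or rested on fewer molecules. SLIRP (ENSG00000119705), whose product binds mitochondrial messenger RNAs together with LRPPRC, had 377, 382, 768 and 771 CPM in the high-share groups and 433, 441, 846 and 837 in the low-share groups. It was lower in each set by about the same ratio, with a log2 ratio of −0.16 (SE 0.022, edgeR adjusted p = 0.0418). It was not called without the leading cells (edgeR adjusted p = 0.160), without the very deep cells (edgeR adjusted p = 0.112) or within well barcodes (−0.02). BUB3, of the mitotic checkpoint, had a log2 ratio of −0.20, the long noncoding RNA ENSG00000284607 −0.65 and RNF24, a RING finger protein, −0.71 (SE 0.36). For RNF24, 1 KO batch 1 cell held 20.1% of all its UMIs, and without the leading cells the ratio was −0.21 (edgeR adjusted p = 0.999). BUB3 and ENSG00000284607 also lost their calls there, and these 3 genes were not called within well barcodes. The processed pseudogenes ENSG00000233406 (−0.25), RPL35P1 (−0.23) and RPS2P7 (−0.19) are copies of other genes, so the gene of origin of their reads is uncertain.

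Apart from the nuclear copies, UCHL1, SH3KBP1, DIP2A and EFR3B rose. UCHL1 (ENSG00000154277), an abundant deubiquitinating enzyme of neurons, had 7797, 7963, 4737 and 4726 CPM in the high-share groups and 7456, 7654, 4435 and 4511 in the low-share groups. The direction was the same in each set, while the genotypes differed far more than the groups. Its log2 ratio was 0.07 (SE 0.0083, edgeR adjusted p = 0.0423), and it was not called without the leading cells (edgeR adjusted p = 0.246), with the robust option (edgeR adjusted p = 0.158) or within well barcodes (0.03). SH3KBP1 (ENSG00000147010), an adaptor in receptor endocytosis, had 1211, 963, 1065 and 1153 against 904, 915, 1045 and 1105, so the difference was largest in WT batch 1 (fitted log2 ratio 0.14, SE 0.093, edgeR adjusted p = 0.0113). It was not called without the leading cells (0.04) or within well barcodes (0.07).

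DIP2A (ENSG00000160305) had 26.9, 34.4, 247 and 302 against 25.9, 27.1, 182 and 232, a log2 ratio of 0.37 (SE 0.085, edgeR adjusted p = 0.00369) that stayed called without the leading cells (0.35) and within well barcodes (0.36). EFR3B, a scaffold for a lipid kinase at the plasma membrane, was rare, with 17, 25, 20 and 52 UMIs in the high-share groups and 23, 20, 1 and 16 in the low-share groups. Per nuclear UMI it was nearly equal in WT batch 1 and higher in the other 3 sets, with a log2 ratio of 1.37 (SE 0.80, edgeR adjusted p = 0.000808). It was not called without the leading cells (0.86, edgeR adjusted p = 0.866) or within well barcodes (0.05).

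**Figure D4:**
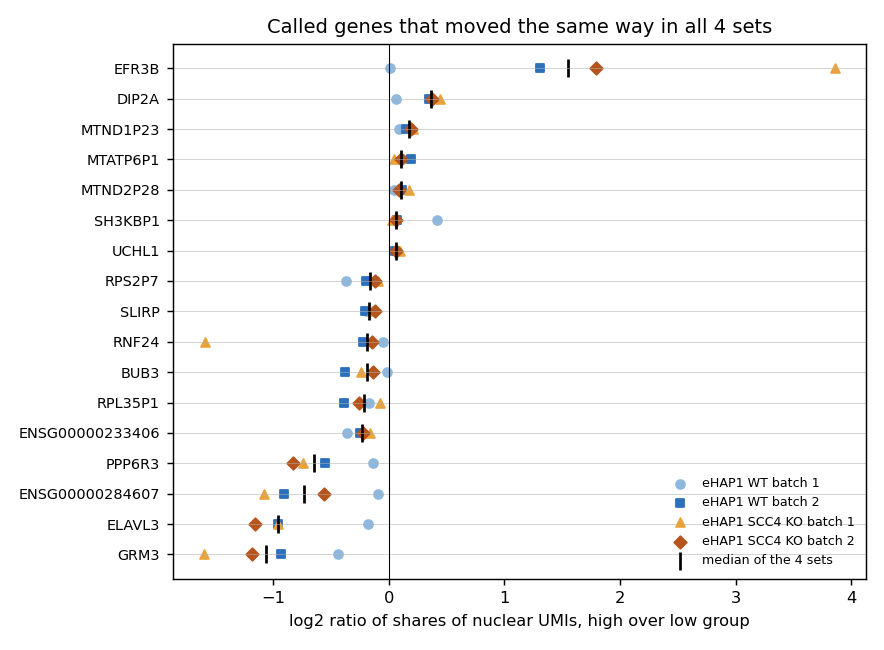
Log2 ratio of the share of nuclear UMIs, high-share over low-share group, in each of the 4 sets for 17 called genes with 1 direction in all sets, with a bar at the median. The KO batch 1 values of EFR3B and RNF24 and the WT batch 1 value of SH3KBP1 lie away from the other 3.

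ELAVL3, PPP6R3 and GRM3 rose and fell together from cell to cell with other called genes. BCYRN1, a short RNA known from neurons whose Alu-derived sequence has many copies, so that its counts are uncertain, C5orf63, SENP7, a SUMO protease, ZNF3, a zinc finger protein, and TMEM134 were lower in the high-share group in 3 of 4 sets and higher in WT batch 1, and were named after their values were seen. C5orf63 had 1340, 1013, 781 and 699 CPM in the high-share groups and 1054, 1521, 2327 and 1177 in the low-share groups (log2 ratio −0.64, SE 0.39). BCYRN1 had 446, 404, 578 and 487 against 441, 597, 1221 and 971 (−0.69, SE 0.25). With the robust option TMEM134 stayed called (edgeR adjusted p = 3.04e-07), and the other 4 were not called (edgeR adjusted p = 0.921 for BCYRN1, 0.997 for C5orf63, 0.997 for SENP7 and 0.994 for ZNF3). Over the 28 pairs of these 8 genes, the Spearman correlation across cells, as a median over the 4 sets, was 0.43 to 0.90, and 25 pairs reached 0.5. GRM3 was too rare for the range of 10 to 200 UMIs per cell, which held the other 7. Among all 1576200 pairs of the 1776 genes in that range with a value, 40 pairs reached 0.5, and 20 of those were among the 21 pairs of these 7. The group was picked on these cells, which share libraries, so the correlation is a description. In the fits without the leading cells and within well barcodes, which also take their spread from genes of like level, all 5 added genes were called, with ratios of −0.26 to −0.60 and −0.32 to −0.59.

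The size of a change that recurred was the other criterion. At least 1.2-fold in the same direction in all 4 sets was reached by 175 genes upwards (1.13%) and 150 downwards (0.966%), and 2 of these 325 were among the genes called by edgeR. They were rare genes, with a median of 0.322 UMI per cell against 1.47 over all genes tested. At 1 UMI per cell or more there were 57, and of the 1812 genes at 10 UMIs per cell or more there were 0 (0.0%). As a further look, the cells between the 2 groups were split at their median. There, 160 of the 325 (49.2%) kept their sign, against 51.4% of all genes tested, and 33 of the 44 genes called by edgeR kept it. Of those 1812 genes, 113 were higher (6.24%) and 223 lower (12.3%) in all 4 sets by any amount.

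**Figure D5:**
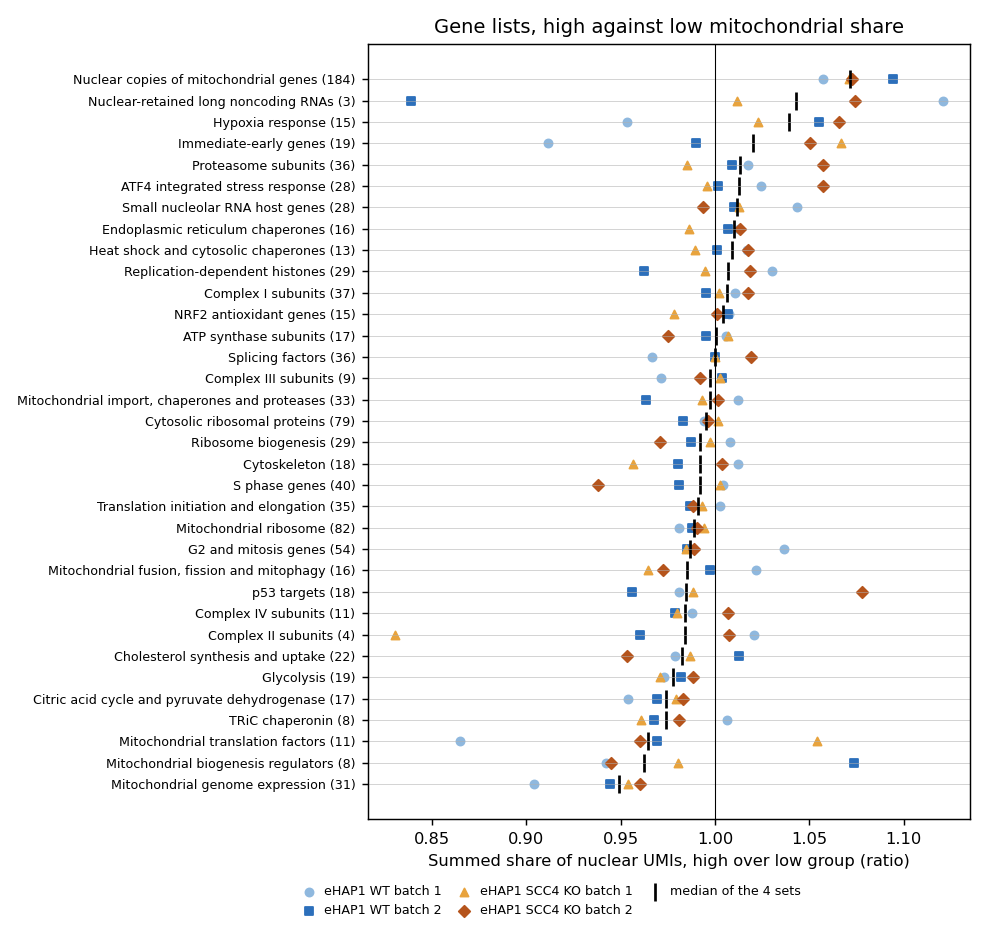
Ratio of the summed share of nuclear UMIs, high-share over low-share group, for 34 gene lists in each of the 4 sets, with a bar at the median and the number of listed genes found in parentheses. Most lists scatter around 1, and the nuclear copies of mitochondrial genes lie above 1 in all 4 sets.

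Nuclear genes for the respiratory chain gave no call. None of the 37 tested complex I genes was called by edgeR, with 5 higher and 5 lower in all 4 sets beside 7.33% and 7.06% of all genes tested. Their summed share was 0.868%, 0.866%, 0.891% and 0.894% in the high-share groups and 0.859%, 0.870%, 0.889% and 0.879% in the low-share groups. NDUFA1, an accessory subunit of complex I, had 1264, 1258, 1178 and 1199 CPM against 1141, 1214, 1145 and 1136, and did not pass (edgeR adjusted p = 0.701). Complex III, complex IV and ATP synthase genes had ratios of 0.97 to 1.01 and no called member among 9, 11 and 17. COX7C, of complex IV, had a log2 ratio of −0.09 (edgeR adjusted p = 0.742).

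Genes that maintain and express the mitochondrial genome had a lower summed share in all 4 high-share groups. It was 0.175%, 0.175%, 0.219% and 0.220% in the high-share groups and 0.194%, 0.185%, 0.230% and 0.229% in the low-share groups, ratios of 0.90, 0.94, 0.95 and 0.96. Without SLIRP, a choice made after seeing the data, the ratios were 0.91, 0.97, 0.98 and 0.98. Of 30 tested, 6 were lower and 1 higher in all 4 sets, beside 7.06% and 7.33% of all genes tested, and SLIRP was the member called. Of all genes at 10 UMIs per cell or more, 12.3% were lower and 6.24% higher in all 4 sets. SSBP1, the single-strand binding protein of mitochondrial DNA, had 246, 252, 257 and 261 CPM against 294, 280, 254 and 261 and did not pass. The ratio was below 1 in all 4 sets with depth-matched groups (0.92 to 0.96) and without cells over 3 times the median depth (0.92 to 0.96), and ranged from 0.93 to 1.01 within well barcodes.

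The mitochondrial ribosome had ratios of 0.98, 0.99, 0.99 and 0.99, with 11 of 81 genes lower and 2 higher in all 4 sets, beside 7.06% and 7.33% of all genes tested, and none called. Among all genes at 10 UMIs per cell or more, 12.3% were lower and 6.24% higher in all 4 sets. Within well barcodes the ratio of the mitochondrial ribosome ranged from 0.98 to 1.01. The citric acid cycle had ratios of 0.95, 0.97, 0.98 and 0.98 with 0 of 16 genes called, and glycolysis 0.97, 0.98, 0.97 and 0.99 with 0 of 18. Glycolysis also lay below 1 in all 4 sets within well barcodes (0.96 to 0.99), with LDHB, a lactate dehydrogenase subunit, at 1380, 1468, 1655 and 1685 CPM against 1515, 1540, 1728 and 1686. These differences were of a few percent, and no gene of these lists reached the threshold.

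Cytosolic ribosomal protein genes held 11.5%, 11.7%, 13.3% and 13.4% of nuclear UMIs in the high-share groups and 11.6%, 11.9%, 13.3% and 13.4% in the low-share groups. Of 79, 22 were lower and 2 higher in all 4 sets, beside 7.06% and 7.33% of all genes tested and 12.3% and 6.24% of those at 10 UMIs per cell or more, and none was called. RPL39 was 1 of the higher ones, with 6799, 6907, 6254 and 6429 CPM against 6563, 6827, 6021 and 6071 (edgeR adjusted p = 0.472). Genes of the ATF4 integrated stress response, which mitochondrial faults are known to induce, had ratios of 1.02, 1.001, 0.995 and 1.06 and 0 of 26 called. ATF4 itself, the transcription factor of this response, had 259, 235, 398 and 456 CPM against 214, 221, 424 and 389 (log2 ratio 0.12, SE 0.082, edgeR adjusted p = 0.775). The other lists shown in the plot of gene lists had no called member.

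Markers of damage or cycling gave no call. MALAT1 and NEAT1, RNAs that stay in the nucleus when cytoplasm leaks out, summed to 261 to 436 CPM in the high-share groups and 255 to 444 in the low-share groups, and were higher in 3 of 4 sets. The 7 markers of G2 and mitosis summed to 686 to 749 against 719 to 775 and were higher in the high-share group of 1 set. The 6 markers of apoptosis and stress summed to 220 to 368 against 232 to 356. Of these and of 4 tested S phase markers none was called by edgeR, and none was at 0 in all groups. CDC20, of the anaphase-promoting complex, had 39.1, 29.7, 23.7 and 22.9 CPM against 40.3, 36.8, 36.2 and 43.3, lower in each set but not past the threshold (edgeR adjusted p = 0.369). Their part in the results above was not tested.

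The genotype was checked by the targeted gene. MAU2 had 57.9, 49.5, 13.1 and 20.6 CPM in the high-share groups and 54.2, 50.2, 12.3 and 18.4 in the low-share groups. It was lower in KO than in WT without overlap, and within a set the groups differed by a log2 ratio of 0.06 (SE 0.036). The difference between groups was tested against genotype in 1 model. It differed for 17 genes (0.109%), 5 with a higher and 12 with a lower log2 ratio in KO than in WT by edgeR. With the robust option 7 genes differed, all among the 17. BCYRN1 was 1 of the 7, with a ratio lower by 0.74 in KO (edgeR adjusted p = 8.16e-10 with the robust option). Its mean log2 ratio was −0.27 in WT and −1.04 in KO. The WT batches were unlike each other, with about equal groups in WT batch 1 and a lower high-share group in WT batch 2. Each genotype was 1 cell population, so this p-value does not cover separate cultures or clones. C5orf63, lower by 1.02, and SENP7, lower by 0.89, were among the 17 and not among the 7. Without KO batch 1, 10 genes differed between the genotypes.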

How the data were processed

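The deposited tables hold UMI counts per gene and cell, not normalised. The authors made these counts with zUMIs on exonic reads of genome build GRCh38, after bcl2fastq 2.20 and read trimming, and removed wells with few exon reads or a low exon mapping rate. They removed batch effects by ComBat-seq for downstream use, and whether the deposited counts had passed that step is not given in the sources used here. The expression of 148 WT and 153 SCC4 KO eHAP1 cells, with 18022 to 926415 UMIs a cell, was used, and the LAST-seq wells of HEK293T cells, lysate and 15-pg total RNA served for comparison. Batches were read from the column prefix. Genes were named and placed with GENCODE 44, and PAR copies were summed with the original.

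Cells were ranked by the percent of UMIs on chromosome M genes within each genotype and batch. UMIs were summed over the cells of each group, giving 8 sums, and nuclear genes averaging 0.1 UMI per cell or more were tested with edgeR's quasi-likelihood test (edgeR 4.0.16, R 4.3.3), with the set as a block, nuclear UMIs as library size and a Benjamini-Hochberg threshold of 0.05. The block is part of the design, because the high-share and low-share cells of a set came from the same libraries. Since cells of 1 set share a library, the 4 sets are technical batches of 2 cell populations, and p-values do not cover separate cultures. The prior degrees of freedom that edgeR estimated were infinite for every gene, so p-values rest on a spread pooled over genes of like level and can be too small for a gene whose sets differ. SEs are therefore the SD of the 4 set ratios divided by the square root of 4. Ratios per set added 0.5 UMI. A genotype interaction was fitted in the same way. DESeq2 1.42.0 and limma 3.58.1 served as alternatives, beside TMM scaling, other filters, other cell fractions, depth matching and leaving out each set. Rankings without MT-ND1 or within well barcodes, and fits without leading or very deep cells or with edgeR's robust option, were chosen after seeing the data. The blocked edgeR fit was checked on simulated sums in which every gene had the same spread, so genes whose sets lie far apart were not covered. That check did not cover the interaction, robust, DESeq2 and limma fits. No doublet caller was run. The study sorted single cells into wells, and whether the deepest wells held more than 1 cell was not tested. Counting error sets the precision of rare genes.

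Named were the called genes that moved in the same direction in all 4 sets at 1 UMI per cell or more, up to 12 each way, called and abundant members of 34 gene lists, the chromosome M genes and MAU2. A gene that this rule names was tested with the rest and is not reported here. The cells, lists and named-gene rule were chosen with earlier results of these data known.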

Additional observations from a re-analysis of the deposited data

Results flagged for a closer look

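Chance alone would mark about 1 in 20 groups as holding a sample far from the others, and 21 groups were looked at. Among 10 wells of 15-pg total RNA, 1 well lay apart from the other 9 at a mitochondrial share of 19.8%. Of the 4 sets, 1 stood far from the other 3 in the log2 ratio of high over low mitochondrial share for SH3KBP1 (0.42 in WT batch 1) and RNF24 (−1.59 in SCC4 KO batch 1).

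The log2 ratio differed between the genotypes, as SCC4 KO minus WT in edgeR's interaction test, for the following genes that the text names. It was higher in KO for MTND1P23 by 0.082 and for CADM1 by 2.48. It differed by −0.078 for MTATP6P1, −0.74 for BCYRN1, −1.02 for C5orf63, −0.89 for SENP7, −0.58 for ZNF3 and −0.73 for TMEM134. It differed by −1.81 for LINC00559 and −3.80 for SRD5A1. For MTND1P23, the KO cells with high MT-ND1 also held more of this copy, and their part in the difference was not tested. For SRD5A1, 1 SCC4 KO batch 2 cell held 86.3% of all UMIs of the gene, for CADM1 1 WT batch 1 cell held 62.9%, and for LINC00559 1 cell held 35.8%. With edgeR's robust option the difference passed for BCYRN1, ZNF3 and TMEM134 and for none of the other 7. Each genotype was 1 cell population, so these tests do not cover separate cultures or clones. SRD5A1, CADM1 and LINC00559 were named after their values were seen.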

How the results depend on the processing

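Of 44 called nuclear genes, the replicate block mattered, since edgeR without it called 0 (84 at an unadjusted p of 0.05). Counts were 13 for the third against the second 25% of cells by rank, 21 without the cell with the most UMIs in each group, 23 with cells ranked within well barcodes, 3 with limma on cell means, 3 with DESeq2, and 27 to 48 when a set was left out. The genes that recur in all 4 sets numbered 70 at 1.5-fold, 2235 with no minimum fold, 198 between the upper and lower 50% of cells, 57 at 1 UMI per cell or more, and 867 to 993 when a set was left out. Genes with a genotype interaction numbered 10 to 17 when a set was left out and 7 with edgeR's robust option. The median difference in genes detected per cell was −673.75 as counted and −60 after thinning. Signs turned for EFR3B (−0.32), DIP2A (−0.0035), ENSG00000284607 (0.21), RNF24 (0.16) and CADM1 (0.46) in the third against the second 25% of cells. They also turned for SRD5A1 (0.12) and CADM1 (0.070) without the leading cells, and SRD5A1 ran from −4.01 to 0.12 when a set was left out. Over all alternatives, 3564 values kept direction and side of the threshold, 199 lost and 4 gained a call. These values include genes without a call in the main fit, which had none to lose. Of the 17 named genes called with 1 direction in all 4 sets, 7 stayed called with depth-matched groups and 5 within well barcodes. Between the upper and lower 50% of cells 7 stayed called, with DESeq2 3 and with limma on cell means 2. Low depth limits genes under 1 UMI per cell. The causes of these changes were not tested.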
